A study of Homo sapiens with 12 samples.

Results

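Serine, glycine, one-carbon units, asparagine and proline are made in human cells by a small set of enzymes, and 10 of their genes were followed here through a METTL1 knockdown. The 10 genes were taken as a fixed list of Ensembl IDs, which was drawn up with earlier results of these data known. They were PHGDH (ENSG00000092621), PSAT1 (ENSG00000135069), PSPH (ENSG00000146733), SHMT2 (ENSG00000182199), MTHFD2 (ENSG00000065911), MTHFD1L (ENSG00000120254), ASNS (ENSG00000070669), PYCR1 (ENSG00000183010), ALDH18A1 (ENSG00000059573) and PCK2 (ENSG00000100889). All 10 were present among the 18569 gene IDs of the data, and they held 1640 of the 842183 listed positions.

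LNCaP-AI is a castration-resistant line derived from the human prostate cancer line LNCaP, and all cells of both groups were kept under androgen deprivation. The shMETTL1 group carried a stable short hairpin against METTL1, the enzyme that places internal N7-methylguanosine (m7G) on tRNA, mRNA and other RNAs, and the shscramble group carried a control hairpin. Each group had 3 AlkAniline-Seq libraries and 3 input libraries, 12 in all. One hairpin was used, and the sources do not say whether the cells were 1 clone or a pool. The labels do not say that the replicates were separate cultures, so the p-values measure only the spread between these samples, which may be partly technical. METTL1 itself and the prostate markers were not analysed here, because no table used here pairs their names with the IDs of the data, and the label of the knockdown was therefore not checked on its target.

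In AlkAniline-Seq, m7G is turned into a break in the RNA by alkaline hydrolysis and aniline cleavage, and the new 5′ end is ligated and read. Each listed position has the number of reads that start there and the coverage, that is all reads that span it. Input libraries were read at the same positions. Positions come without coordinates, so each is named here by its gene and its rank in AlkAniline-Seq reads summed over the 6 libraries (PCK2 position 3 is the third deepest of PCK2). The base at a position is unknown here.

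PHGDH, PSAT1 and PSPH turn the glycolytic intermediate 3-phosphoglycerate into serine in turn by oxidation, transamination and dephosphorylation. SHMT2 splits serine in mitochondria into glycine and a one-carbon unit on folate, which MTHFD2 oxidises and MTHFD1L releases as formate for nucleotide synthesis. ASNS makes asparagine from aspartate and glutamine, ALDH18A1 and PYCR1 make proline from glutamate, and PCK2 is the mitochondrial phosphoenolpyruvate carboxykinase. Most of these genes are known targets of the transcription factor ATF4, which is made when amino acids or charged tRNAs run short and binds the C/EBP-ATF response element.

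The agent that separates the groups is the hairpin. Its sequence has 46 bases, and the 21-base arm that pairs with its own complement at the other end is shown because every comparison rests on it.
shMETTL1 hairpin arm: ggaatgtagtccatctaaact

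Promoter windows from 250 bases before to 50 after the start were found in RefSeq (GRCh38.p14) for 7 of the 10 genes, and none was found for PSPH, SHMT2 and PYCR1. Both strands were searched for the core of the C/EBP-ATF response element, TGATGNAA, and for the CCAAT box, CCAAT. Some genes have several windows, which partly overlap, and the 7 genes have 11 in all. TGATGNAA was in windows of 2 of the 7 genes, ASNS and MTHFD1L. By window it was in 4 of the 11, or 36.4%, against 3.62% of all 35116 windows. The matching windows of MTHFD1L overlap and hold the same site, so the share by window counts that site more than once. CCAAT was in windows of 5 of the 7 genes, PHGDH, PSAT1, MTHFD2, MTHFD1L and PCK2. By window it was in 7 of the 11, or 63.6%, against 34.6% of all windows, and the same CCAAT of MTHFD1L is again counted in several windows. The windows of ASNS and MTHFD1L are shown because they hold the element, that of PSAT1 because its input reads differed most between groups, and that of PHGDH because it carried the most AlkAniline-Seq reads of the serine pathway. Capitals mark the matches.
ASNS, chr7:97872359-97872658, minus strand: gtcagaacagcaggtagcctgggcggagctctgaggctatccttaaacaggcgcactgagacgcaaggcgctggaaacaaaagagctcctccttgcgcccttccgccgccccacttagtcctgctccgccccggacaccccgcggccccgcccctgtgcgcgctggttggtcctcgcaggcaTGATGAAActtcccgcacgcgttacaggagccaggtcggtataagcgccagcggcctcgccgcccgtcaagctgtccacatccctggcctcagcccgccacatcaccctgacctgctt
MTHFD1L, chr6:150866197-150866496, plus strand: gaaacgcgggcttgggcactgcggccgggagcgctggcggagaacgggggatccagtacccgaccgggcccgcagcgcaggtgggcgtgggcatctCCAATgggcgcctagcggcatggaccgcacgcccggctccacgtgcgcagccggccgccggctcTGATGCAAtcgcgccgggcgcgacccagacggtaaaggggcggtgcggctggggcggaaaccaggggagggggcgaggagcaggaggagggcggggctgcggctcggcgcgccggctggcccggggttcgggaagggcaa
PSAT1, chr9:78296875-78297174, plus strand: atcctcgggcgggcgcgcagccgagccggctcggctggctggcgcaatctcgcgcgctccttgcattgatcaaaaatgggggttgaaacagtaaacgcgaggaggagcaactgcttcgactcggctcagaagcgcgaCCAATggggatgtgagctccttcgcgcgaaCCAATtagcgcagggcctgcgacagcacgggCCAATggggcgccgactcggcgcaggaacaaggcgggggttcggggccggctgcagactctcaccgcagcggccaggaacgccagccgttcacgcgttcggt
PHGDH, chr1:119711684-119711983, plus strand: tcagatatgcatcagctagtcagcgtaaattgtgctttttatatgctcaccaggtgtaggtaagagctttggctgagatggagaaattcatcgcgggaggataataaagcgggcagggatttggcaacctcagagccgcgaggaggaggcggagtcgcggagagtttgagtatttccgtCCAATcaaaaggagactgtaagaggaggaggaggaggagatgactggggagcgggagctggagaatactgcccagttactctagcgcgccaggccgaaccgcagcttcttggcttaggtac

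Reads at listed positions numbered 2474464 to 2764417 per shMETTL1 AlkAniline-Seq library and 1421551 to 2624431 per shscramble AlkAniline-Seq library. Input libraries held 2783709 to 3258499 reads in shMETTL1 and 3045523 to 3152800 reads in shscramble. The 10 genes took 0.3876%, 0.3784% and 0.35% of AlkAniline-Seq reads in the shMETTL1 libraries, against 0.2787%, 0.2659% and 0.267% in the shscramble libraries, and these groups did not overlap. In input they took 0.3837%, 0.3463% and 0.3304% in shMETTL1 and 0.2726%, 0.3219% and 0.2945% in shscramble, again without overlap. These shares are descriptions of a chosen set and carry no test.

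Libraries that stood apart touch many of the values that follow. Shscramble AlkAniline-Seq replicate 1 was read at nearly every position that was deep in the other shscramble libraries. All 46 member positions with at least 50 reads in shscramble replicate 2, and all 28 in shscramble replicate 3, were read in replicate 1, whereas the other ordered pairs of libraries shared 36.4% to 78.9% of such positions. At the 10 member positions that were deep in shscramble replicate 2 and had at most 1 read in any library but replicate 1, the median in replicate 1 was 9.84% of the reads of replicate 2. At the 5 such positions of replicate 3 the median was 14.5%. Over all gene IDs these medians were 10.1% at 5177 positions and 14.1% at 2410 positions. At positions private to a shMETTL1 library, 16.3% to 20.6% were read in shscramble replicate 1, with a median of 0. The source of the shared reads was not tested.

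**Figure D1:**
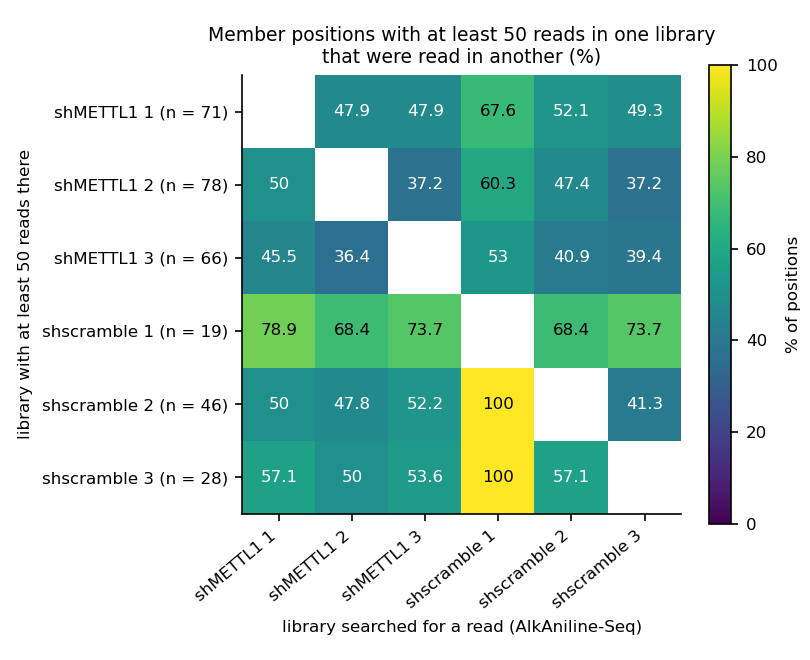
Percent of member positions with at least 50 AlkAniline-Seq reads in the library of the row (n positions) that had a read in the library of the column. The column of shscramble replicate 1 reaches 100% for shscramble replicates 2 and 3, and the other cells lie between 36.4% and 78.9%.

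ShMETTL1 input replicate 1 was read at 311979 positions and shscramble input replicate 2 at 72098, against 153839 to 165105 in the other input libraries. Single positions held most reads of some genes in shscramble input replicate 2. PYCR1 position 4 had 1113 of the 1423 PYCR1 reads there and 0 to 9 in the other 5 input libraries, and PSPH position 20 had 108 of 113 PSPH reads. ALDH18A1 position 43 had 330 reads and MTHFD2 position 4 had 239 reads in that library, against at most 7 and 13 in the others.

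**Figure D2:**
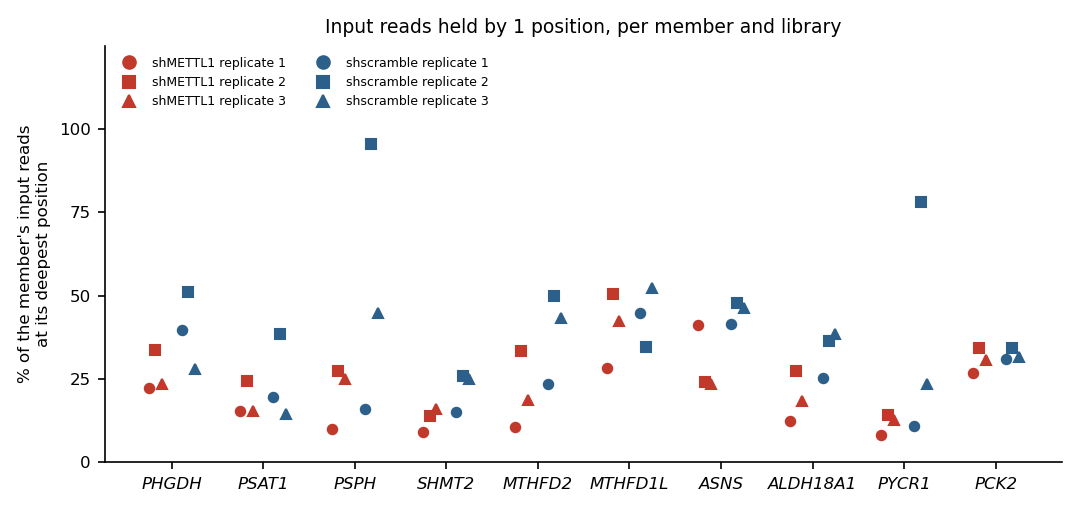
Percent of each gene's input reads held by its deepest position in that library, for shMETTL1 (left of each pair) and shscramble, with symbols for replicates. Shscramble replicate 2 stands above all others for PSPH at 95.6% and PYCR1 at 78.2%.

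The question of the first comparison was whether AlkAniline-Seq reads of these genes differed after METTL1 knockdown. Reads were counted as CPM, read counts scaled to a common library total after TMM correction, and tested with edgeR's quasi-likelihood test over 11097 gene IDs. None of the 10 genes passed an adjusted p of 0.05, as only 1 gene ID of all did. Of the 10, 9 had a log2 difference above 0, with a median of 0.52, against 52.9% of all gene IDs above 0 with a median of 0.07. PHGDH, PSPH and PCK2 had an unadjusted p under 0.05, all higher in shMETTL1, and their CPM groups did not overlap. Over all gene IDs, 3.84% were higher and 3.14% lower at that unadjusted p, and 7.1% were higher and 7.38% lower without overlap of the groups. No member was lower by either rule. With each library left out in turn, the unadjusted p stayed under 0.05 in 6 of 6 fits for PSPH, 5 for PHGDH and 4 for PCK2. Without shscramble replicate 1 the log2 differences of PHGDH, PSPH and PCK2 were 0.98, 3.31 and 0.80, and those of SHMT2, MTHFD2 and PYCR1 were 0.42, 0.49 and 0.72. ALDH18A1 was then at 0.16, MTHFD1L at -0.09 and ASNS at 0.06.

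The first enzyme of serine synthesis, PHGDH, had 892, 1192 and 646 CPM in the shMETTL1 libraries, against 541, 518 and 397 CPM in the shscramble libraries. Every shMETTL1 value was above every shscramble value. The group means were 910 ± 273 CPM in shMETTL1 and 485 ± 77.4 CPM in shscramble (SD, n = 3 each). The log2 difference was 0.91 with an SE of 0.30 and an adjusted p of 0.53 by edgeR. In bulk RNA, a change in the mix of cells and a change per cell cannot be told apart.

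PSPH, the phosphatase of the last step, had 258, 499 and 482 reads in shMETTL1 and 146, 34 and 30 reads in shscramble. As CPM these were 101, 203 and 206 in shMETTL1 and 80.3, 12.8 and 21.3 in shscramble, so the groups lay close at replicate 1 of each. The log2 difference was 2.15 with an SE of 0.73 and an adjusted p of 0.53 by edgeR. Reads of PSPH may be shared with its near-identical pseudogene copies, since how reads with several matching places were counted is not stated. The same holds for ASNS and MTHFD2, which also have such copies.

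PSAT1, the transaminase between them, did not separate the groups in AlkAniline-Seq reads, with 517, 283 and 305 CPM in shMETTL1 and 206, 370 and 375 CPM in shscramble. Its log2 difference was 0.22 with an SE of 0.37, and it was -0.02 without shscramble replicate 1.

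In the mitochondrial folate branch, SHMT2 averaged 263 ± 108 CPM in shMETTL1 and 180 ± 26.9 CPM in shscramble (SD, n = 3 each). MTHFD2 averaged 161 ± 96.8 CPM in shMETTL1 and 114 ± 7.52 CPM in shscramble. MTHFD1L averaged 305 ± 84.9 CPM in shMETTL1 and 312 ± 45.2 CPM in shscramble. Their log2 differences were 0.54, 0.50 and -0.03 with SEs of 0.42, 0.57 and 0.35, all smaller than 1.5 times the SE.

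ASNS had 461, 200 and 516 CPM in shMETTL1 and 418, 271 and 478 CPM in shscramble, which overlap, and the log2 difference was 0.01 with an SE of 0.39. In proline synthesis, ALDH18A1, which makes pyrroline-5-carboxylate from glutamate, averaged 83.9 ± 50.8 CPM in shMETTL1 and 62.5 ± 36.3 CPM in shscramble. PYCR1, which reduces it to proline, averaged 256 ± 88.9 CPM in shMETTL1 and 140 ± 61.0 CPM in shscramble (SD, n = 3 each), a log2 difference of 0.88 with an SE of 0.46.

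PCK2 carried the most AlkAniline-Seq reads of the 10, with 962, 1180 and 873 CPM in shMETTL1 and 704, 645 and 500 CPM in shscramble. The groups did not overlap. The means were 1005 ± 158 CPM in shMETTL1 and 616 ± 105 CPM in shscramble (SD, n = 3 each), and the log2 difference was 0.71 with an SE of 0.27 and an adjusted p of 0.60 by edgeR.

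**Figure D3:**
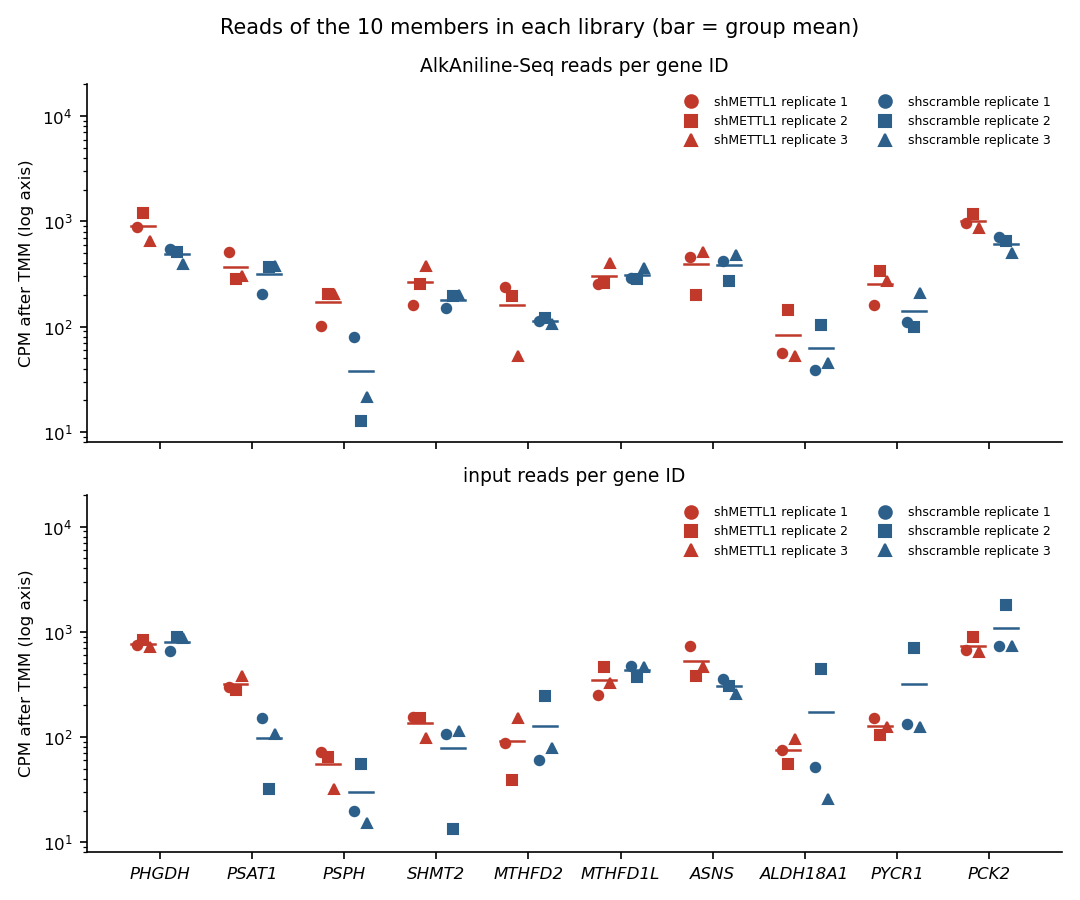
CPM after TMM scaling (log axis) of the 10 genes in each library, above for AlkAniline-Seq and below for input, with shMETTL1 left of shscramble in each pair and a bar at the group mean. PHGDH, PSPH and PCK2 do not overlap between groups in AlkAniline-Seq, and PSAT1 and ASNS do not overlap in input.

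Input libraries give the RNA without the enrichment of cleaved ends. None of 11740 gene IDs passed an adjusted p of 0.05 in edgeR, although 735 had a p under 0.05 before adjustment. DESeq2 called 35, no member among them. Members with an unadjusted p under 0.05 were PSAT1 and ASNS, higher, and PYCR1, lower. Over all gene IDs 1.64% were higher and 4.62% lower by that rule. The CPM groups of PSAT1 and ASNS did not overlap, higher in shMETTL1, as for 7.64% of all gene IDs, and no member was lower without overlap, as 5.84% of all were.

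PSAT1 had 1157, 951 and 1158 input reads in shMETTL1, against 476, 65 and 346 in shscramble. Its mean was 321 ± 55.0 CPM in shMETTL1 and 96.8 ± 60.2 CPM in shscramble (SD, n = 3 each). The log2 difference was 1.72 with an SE of 0.52 and an adjusted p of 0.75 by edgeR, and 1.31 without shscramble input replicate 2.

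ASNS had 732, 379 and 460 input CPM in shMETTL1 and 353, 309 and 254 input CPM in shscramble. The lowest shMETTL1 value was above the highest shscramble value. The log2 difference was 0.78 with an SE of 0.37 and an adjusted p of 0.77 by edgeR. It was 0.78 without shscramble input replicate 2 but 0.45 (SE 0.47) without shMETTL1 input replicate 1, and its unadjusted p stayed under 0.05 in only 2 of the 6 fits with 1 input library left out.

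The lower input values of the proline genes and of PCK2 rested on shscramble input replicate 2. PYCR1 had 586, 353 and 379 input reads in shMETTL1 and 418, 1423 and 398 in shscramble, with a log2 difference of -1.33 (SE 0.58) that was -0.02 without that library. ALDH18A1 had 290, 187 and 289 input reads in shMETTL1 and 165, 903 and 83 in shscramble, and its log2 difference of -1.21 was 0.95 without it. PCK2 had 2602, 3018 and 1961 input reads in shMETTL1 and 2290, 3679 and 2358 in shscramble, and its difference of -0.56 was 0.01 without it. MTHFD2 was at -0.46 with all libraries and at 0.40 without it. Of the 10 genes, 4 were above 0 in the full fit and 8 without that library. PSPH had a difference of 0.89 in the full fit and 1.67 without that library (SE 0.64). The median of all gene IDs was -0.04 with TMM scaling and 0.22 with library size alone, and by the second PHGDH and MTHFD2 were at 0.25 and 0.02, against -0.06 and -0.46 with TMM scaling.

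Coverage summed over the listed positions of a gene was used as a second measure beside reads. This measure was chosen after its values were seen. In AlkAniline-Seq libraries it includes reads of enriched cleaved ends, so it is not the level of the RNA alone. Single libraries still stood apart in it. PYCR1 input coverage was 17481 in shscramble input replicate 2 and 5427 to 7312 in the other input libraries. Each read is counted at every listed position it spans, so coverage is not a number of independent reads, and input and AlkAniline-Seq libraries of a group may come from the same cultures. Log2 CPM of coverage was tested with limma over 6364 gene IDs in AlkAniline-Seq and 6487 in input with a coverage of at least 100 in every library. No member passed an adjusted p of 0.05, as 1 gene ID of all did in AlkAniline-Seq and 0 in input, where 488 had an unadjusted p under 0.05.

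PSAT1 coverage was 550, 564 and 379 CPM in shMETTL1 and 283, 311 and 302 CPM in shscramble in AlkAniline-Seq. In input it was 414, 265 and 362 CPM in shMETTL1 and 144, 94.2 and 140 CPM in shscramble. The groups did not overlap in either. The log2 differences were 0.72 with an SE of 0.23 in AlkAniline-Seq and 1.46 with an SE of 0.27 in input, with adjusted p of 0.23 and 0.42 by limma. Without shscramble input replicate 2 the input difference was 1.25 and the adjusted p 0.046 by limma, in a fit where 13 of 7974 gene IDs passed. With any other input library left out, the adjusted p of PSAT1 was between 0.41 and 0.95 by limma.

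ASNS coverage was 530, 434 and 617 CPM in shMETTL1 and 316, 280 and 340 CPM in shscramble in AlkAniline-Seq, and 515, 343 and 411 CPM in shMETTL1 and 214, 199 and 235 CPM in shscramble in input. Again no shMETTL1 value was as low as any shscramble value. The log2 differences were 0.75 with an SE of 0.23 in AlkAniline-Seq and 0.95 with an SE of 0.22 in input, with adjusted p of 0.21 and 0.43 by limma.

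In AlkAniline-Seq coverage PHGDH, SHMT2 and PCK2 joined PSAT1 and ASNS at an unadjusted p under 0.05, all higher in shMETTL1, at log2 differences of 0.61, 0.75 and 0.59. With 1 library left out, PHGDH, PSAT1 and ASNS stayed under 0.05 in 6 of 6 fits, PCK2 in 5 and SHMT2 in 2. Without shscramble replicate 1, PSPH was at 1.10 in coverage, against 0.68 with all libraries, MTHFD2 at 0.67, against 0.46, and ALDH18A1 at -0.01, against 0.23. Thus 5 of 10 members were higher and 0 lower, where 5.48% of all gene IDs were higher and 4.89% lower. Members whose coverage groups did not overlap were MTHFD2, ASNS, PHGDH, PCK2 and PSAT1, all higher, beside 9.05% of all gene IDs higher and 8.08% lower. In input only PSAT1 and ASNS met either rule, with 3.78% of all gene IDs higher and 3.75% lower at an unadjusted p under 0.05 and 8.02% higher and 7.52% lower without overlap. PYCR1 and MTHFD1L differed little in AlkAniline-Seq coverage, at 0.10 (SE 0.30) and -0.14 (SE 0.23).

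**Figure D4:**
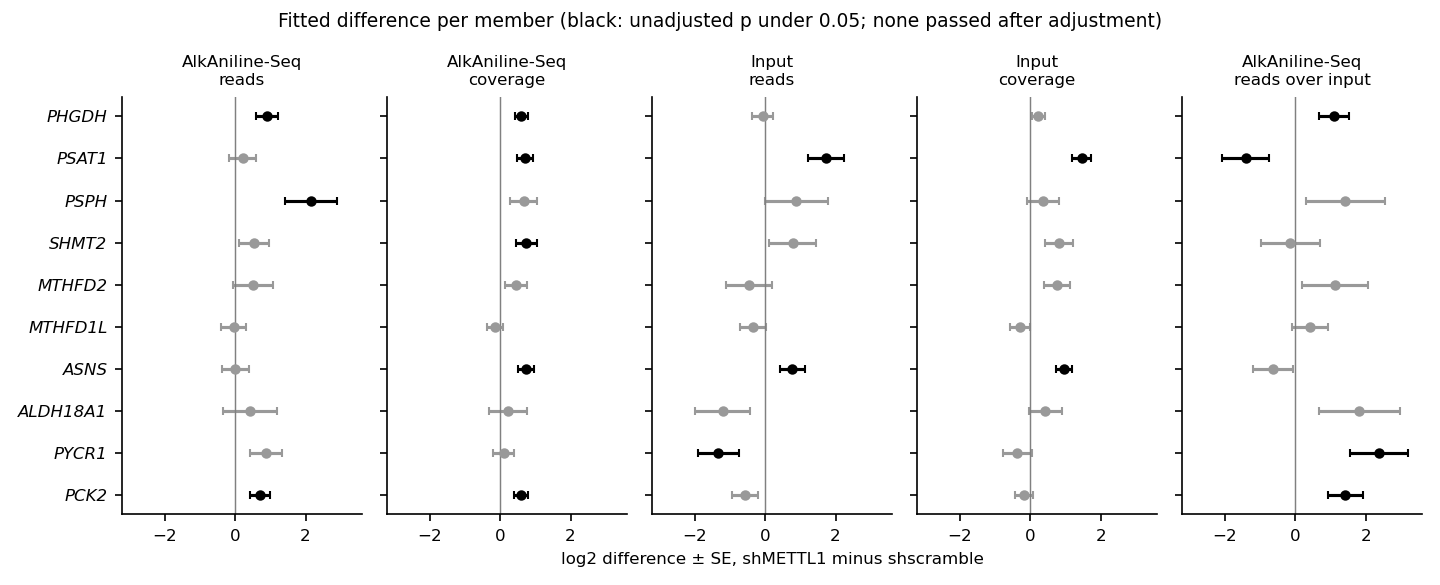
Fitted log2 difference of each gene, shMETTL1 minus shscramble, with its SE, for AlkAniline-Seq reads and coverage, input reads and coverage, and AlkAniline-Seq reads over input. PSAT1 and ASNS are above 0 with small errors in both coverage panels, and the input reads of PYCR1 and ALDH18A1 lie at -1.33 and -1.21.

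The difference in AlkAniline-Seq reads relative to that in input was the interaction term of 1 edgeR fit with all 12 libraries and 12877 gene IDs. No member passed after adjustment, with adjusted p of at least 0.49. PHGDH, PYCR1 and PCK2 had an unadjusted p under 0.05 above 0, at log2 differences of 1.11 (SE 0.43), 2.38 (SE 0.83) and 1.43 (SE 0.49), and PSAT1 below 0, at -1.40 (SE 0.67). Over all gene IDs 5.3% were higher and 3.04% lower by that rule. Without shscramble input replicate 2, PYCR1 was at 1.0 and PCK2 at 0.80, while PHGDH was at 1.0 and PSAT1 at -0.98. ALDH18A1, at 1.82 in the full fit, was at -0.41 without it. PSPH was at 1.43 with all libraries and at 2.49 without shscramble AlkAniline-Seq replicate 1. PSAT1 stayed under an unadjusted p of 0.05 in 4 of the 12 fits with 1 library left out. The median over all gene IDs was 0.24 with TMM scaling and -0.28 with library size alone, and MTHFD1L was at 0.43 by the first and -0.05 by the second.

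Within the groups, no member differed between AlkAniline-Seq and input in shMETTL1 at an unadjusted p under 0.05, where 3.53% of gene IDs were higher and 4.74% lower in AlkAniline-Seq. In shscramble PSAT1 was higher in AlkAniline-Seq, at a log2 difference of 1.51 (SE 0.48), as 4.32% of gene IDs were, and PHGDH, PCK2, PYCR1 and ALDH18A1 were lower, at -0.96, -1.07, -1.45 and -1.76, as 8.86% were. The smallest adjusted p of these was 0.17 by edgeR. Without shscramble input replicate 2, PYCR1 was at -0.08, PCK2 at -0.45 and ALDH18A1 at 0.47. Without shscramble AlkAniline-Seq replicate 1, PSPH was at -0.97, against 0.09 with all libraries.

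Reads as a percent of the coverage of the same gene are not moved by the level of the RNA alone. This percent was tested with limma on log2(percent + 0.1), and no gene ID passed after adjustment, although 388 had a p under 0.05 before it. PSPH had 2.40%, 9.49% and 8.85% in shMETTL1, against 3%, 1.42% and 1.40% in shscramble, so that shMETTL1 replicate 1 lay below shscramble replicate 1. Its log2 difference was 1.64 with an SE of 0.66, the only member at an unadjusted p under 0.05, as 2.56% of gene IDs were higher and 3.54% lower by that rule. It stayed under 0.05 in 2 of the 6 fits with 1 library left out. ASNS had 5.63%, 2.71% and 5.83% in shMETTL1, all below the 9.81%, 7.24% and 9.39% in shscramble, a log2 difference of -0.95 with an SE of 0.44 that did not reach an unadjusted p of 0.05. ASNS was the only member whose groups did not overlap on this scale, where 4.68% of all gene IDs were higher and 7.94% lower without overlap. PHGDH was at 0.10 (SE 0.40) and PCK2 at -0.04 (SE 0.35), within their errors.

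Single positions varied far more than genes. The coefficient of variation between replicates that edgeR estimated was 1.42 for positions, 0.90 for AlkAniline-Seq reads per gene ID and 0.81 for input reads per gene ID. Of the 893 member positions read in AlkAniline-Seq, 48.3% were read in only 1 of the 6 libraries and 27 in all 6, against 62.9% and 1.9% of all positions read. Positions read in shMETTL1 only held 28.2% of the members' shMETTL1 reads, and positions read in shscramble only held 29.1% of their shscramble reads, against 35.9% and 34.8% over all gene IDs. By gene, the share in shMETTL1 ranged between 12% for MTHFD1L and 91.1% for MTHFD2.

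The 27 positions read in all 6 libraries lay in PCK2 (8), MTHFD1L (7), PHGDH (6), ASNS (3), PSPH (2) and PSAT1 (1). They held 30.7%, 31.1% and 29.2% of the members' AlkAniline-Seq reads in shMETTL1 and 35.4%, 33.7% and 31.9% in shscramble. Of the 27, 20 were also read in all 6 input libraries, and each was read in at least 2. They held 36.8% to 43.2% of the members' input reads in shMETTL1 and 47.9% to 54.3% in shscramble.

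PHGDH position 1, PCK2 position 2 and MTHFD1L position 1 show this recurrence. At PHGDH position 1, 203, 178 and 108 reads in shMETTL1 and 159, 92 and 63 in shscramble made up 42.2% to 100% of the coverage, and 82.3% to 99.9% in input. MTHFD1L position 1 had 88, 184 and 329 reads in shMETTL1 and 203, 268 and 242 in shscramble. These were 37.7% to 50.9% of its coverage in shMETTL1 and 48.5% to 60.1% in shscramble, and 41% to 52.9% in the input libraries. PCK2 position 2 had 326, 482 and 462 reads in shMETTL1 and 430, 368 and 72 in shscramble, with 592 to 1262 in input.

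Among the 332 member positions with at least 30 AlkAniline-Seq reads, the groups of 13 did not overlap in reads as counted, without scaling, and were lower in shMETTL1, and those of 5 were higher. These are 3.92% and 1.51%, against 4.3% and 1.54% of the 102912 such positions of all gene IDs. With reads scaled to the library total, a setting added after seeing the data, 15 were lower and 4 higher, against 5.4% and 1.39% of all. All 13 lower and 4 of the 5 higher positions were among these.

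The counts moved with single libraries, for members as for all positions. Without shscramble replicate 1, 2 or 3, 13, 32 and 49 member positions were lower. These were 4.25%, 11.5% and 16.3%, against 4.74%, 15% and 21.1% of all positions. In the same settings 10, 9 and 7 member positions were higher, or 3.27%, 3.23% and 2.33%, against 2.53%, 2.79% and 2.02% of all. In each of these 3 settings the share of lower member positions was below that of all positions and the share of higher ones above it. The settings share most of their libraries, so they are not separate results. With all libraries the shares were 3.92% against 4.3% lower and 1.51% against 1.54% higher.

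Without shMETTL1 replicate 1, 2 or 3, 21, 13 and 16 member positions were lower. These were 7.66%, 4.68% and 5.73%, against 7.49%, 6.29% and 6.56% of all. In those settings 13, 24 and 31 member positions were higher, or 4.74%, 8.63% and 11.1%, against 5.32%, 6.14% and 5.82% of all. The share of higher member positions was thus above that of all positions without shMETTL1 replicate 2 or 3, and below it without replicate 1.

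The lower positions lay in PHGDH (3), ASNS (3), PYCR1 (3), MTHFD2 (2), PSAT1 (1) and SHMT2 (1). At each, shscramble replicate 2 or 3 held most of the shscramble reads, between 58.3% and 90.5% of them with a median of 76.2%. At 4 of the 13 at least 1 shMETTL1 library had a coverage of 0, so it could not show a read there. Others had nearly no coverage in some shMETTL1 libraries. Coverage in shMETTL1 was 58, 1 and 1 at SHMT2 position 19, 44, 2 and 10 at ASNS position 18, and 26, 54 and 2 at PYCR1 position 7. As a percent of coverage SHMT2 position 19 overlapped between groups, at 0%, 100% and 0% in shMETTL1 and 72.7%, 100% and 98% in shscramble. PSAT1 position 13 had 0, 1 and 0 reads in shMETTL1 and 16, 25 and 58 in shscramble, where they were 69.6%, 35.2% and 93.5% of its coverage. Its coverage in shMETTL1 was 103, 181 and 0. PYCR1 position 12 had no reads in shMETTL1, at a coverage of 32, 53 and 115, against 15, 20 and 49 reads in shscramble, at a coverage of 46, 43 and 115. With 3 counts over the group taken as the floor and reads scaled to library totals, it was 37.6-fold lower in shMETTL1. Such a fold describes a position picked because its groups did not overlap. It is no bound, since PCR reads are not independent molecules. PHGDH position 48 had no reads in shMETTL1 against 9, 45 and 11 in shscramble, 29.1-fold lower with the same floor. Its input had 16, 1 and 1 reads in shMETTL1 and none in shscramble. Its coverage in shMETTL1 was 36, 114 and 0. ASNS position 13 had 0, 1 and 1 reads in shMETTL1 and 15, 64 and 5 in shscramble, and its coverage was 440 to 828 in shMETTL1 and 164 to 233 in shscramble.

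Several rested mostly on 1 shscramble library. PYCR1 position 13 had no reads in shMETTL1 and 7, 76 and 1 in shscramble, and PHGDH position 51 had none in shMETTL1 and 4, 57 and 2 in shscramble. ASNS position 18 had none in shMETTL1 and 8, 1 and 67 in shscramble, and SHMT2 position 19 had 0, 1 and 0 in shMETTL1 and 8, 2 and 48 in shscramble. These positions, like all the lower ones, join a deeper shscramble replicate 2 or 3 with a smaller number of reads in replicate 1. The part of the shared reads in them was not tested. This includes PSAT1 position 13, PYCR1 position 12, PHGDH position 48 and ASNS position 13. At MTHFD2 position 15, with no reads in shMETTL1 and 8, 47 and 1 in shscramble, all 3 shMETTL1 libraries had a coverage of 0. ASNS position 30 had 0, 1 and 0 reads in shMETTL1, at a coverage of 0, 1 and 0, and 4, 3 and 41 reads in shscramble.

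The higher positions lay in PHGDH (2), PCK2 (2) and PSAT1 (1). PCK2 position 3 had 215, 233 and 184 reads in shMETTL1 and 50, 4 and 2 in shscramble. They were 30.5%, 29.9% and 48.4% of its coverage in shMETTL1 and 24.8%, 1.41% and 2.04% in shscramble, so shscramble replicate 1 lay near the shMETTL1 libraries on that scale. PHGDH position 2 had 157, 239 and 99 reads in shMETTL1 and 34, 44 and 47 in shscramble, and as a percent of coverage the groups overlapped, at 29%, 98% and 16.2% in shMETTL1 and 35.1%, 15.8% and 23.3% in shscramble. PCK2 position 9 had 61, 112 and 65 reads in shMETTL1 and 5, 0 and 44 in shscramble, but its groups overlapped once depth was taken into account. Per 1e6 reads of the library it had 24.3, 40.5 and 26.3 in shMETTL1 and 2.89, 0 and 31 in shscramble, and as a percent of coverage 8.75%, 10.7% and 10.2% in shMETTL1 and 2.34%, 0% and 13.1% in shscramble. PHGDH position 5 had 2, 3 and 214 reads in shMETTL1 and 1, 0 and 0 in shscramble, nearly all in 1 library.

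edgeR called no position of the 13973 it tested, of which 56 belonged to members. At an unadjusted p under 0.05 it had 1 member position higher, PCK2 position 3, and 3 lower, PHGDH position 48, PYCR1 position 12 and PSAT1 position 13, where 1.88% of all positions were higher and 6.32% lower. The adjusted p of these 4 by edgeR were 0.46, 0.31, 0.31 and 0.36. PCK2 position 3 was at a log2 difference of 3.22 (SE 1.32) with all libraries and 5.94 (SE 1.9) without shscramble replicate 1. DESeq2 called 713 of the 13973 positions, 536 of them lower in shMETTL1. Of the 56 member positions it called 2, both lower. These were PYCR1 position 12 and PSAT1 position 13, with adjusted p of 0.035 and 0.032 by DESeq2. Without shscramble replicate 3 edgeR called 5644 of the 29677 positions it then tested, and 16 of the 116 tested positions of members. Without any other single library it called 3 to 27, none of a member. The shscramble libraries left in the fit with 5644 calls were replicates 1 and 2, which share reads and so may not be independent. The part of the shared reads in those calls was not tested. The methods' t-test on the deposited fold, at the methods' limits of 1.5 for the fold and 0.05 for p before adjustment, passed 12 member positions lower and 1 higher, in MTHFD1L, beside 4235 lower and 825 higher over all gene IDs. Without shscramble replicate 1, 2 or 3 it passed 17, 57 and 69 member positions lower, beside 5673, 22204 and 31534 of all, and 0, 1 and 0 higher, beside 810, 733 and 684. Without shMETTL1 replicate 1, 2 or 3 it passed 10, 13 and 15 member positions higher, beside 4054, 4644 and 4045 of all. In these settings it passed 15, 14 and 12 lower, beside 4175, 4070 and 4132. Members held 893 of the 404685 positions read in any AlkAniline-Seq library. How many positions these limits could be applied to is not given here for any setting. The counts therefore carry no share, and whether members passed more often than all positions was not tested.

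**Figure D5:**
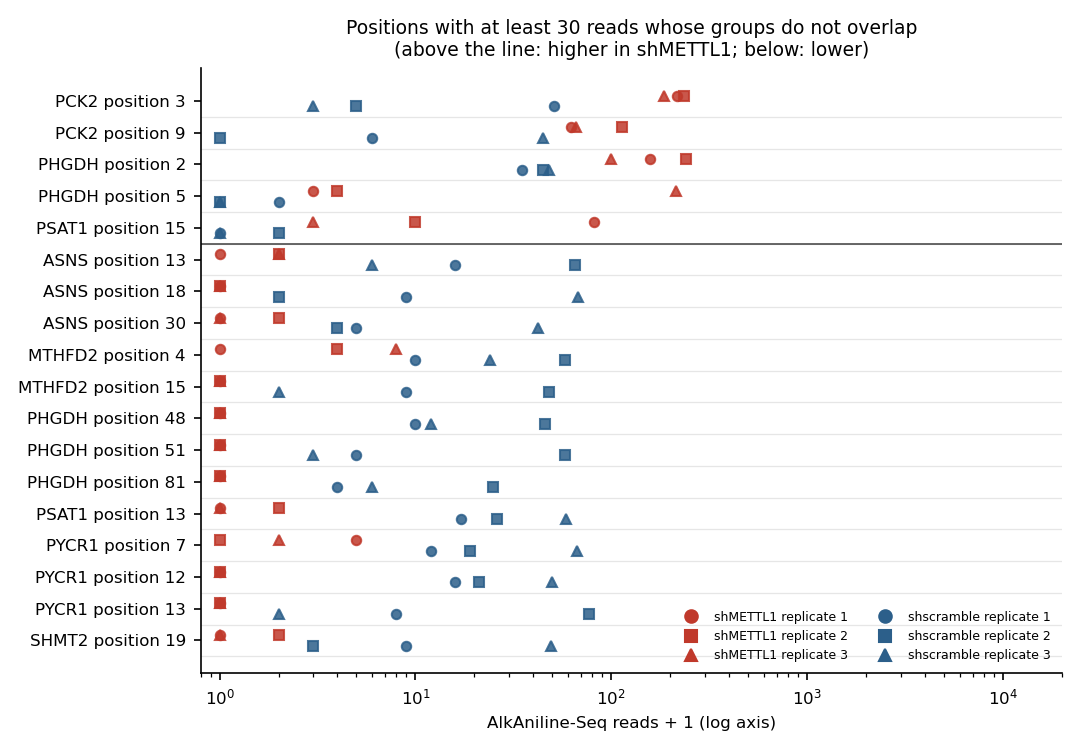
AlkAniline-Seq reads plus 1 (log axis) at the 18 member positions with at least 30 reads whose groups do not overlap in reads as counted, for shMETTL1 (upper points of each row) and shscramble, with symbols for replicates. The 5 rows above the line are higher in shMETTL1, with PCK2 position 3 at 184 to 233 reads against 2 to 50, and the 13 rows below it are lower.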

How the data were processed

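Per the labels, RNA of LNCaP-AI cells was harvested with Trizol for AlkAniline-Seq. Tools and build named in the submitters' processing notes are bedtools 2.24, Bowtie2 2.2.4, cutadapt 1.9.1 and hg19. How multi-mapping reads were handled is not stated. For each position the authors deposited 2 counts, of reads starting there and of reads covering it, their quotient as a fraction, and a ratio of the AlkAniline-Seq fraction to the input fraction. Recomputing both gave the deposited values, the ratio within a relative tolerance of 0.0001 where both fractions were above 0. All files list the same gene IDs in the same order, and this order joined them. The files carry Ensembl IDs only. The 10 members were named by the given order of IDs. Because no table used here pairs symbols with Ensembl IDs, the wider pathway list, METTL1 and the cell type markers were not looked up. The members and lists were chosen with earlier results of these data known.

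Counts were summed per gene ID. The quasi-likelihood test of edgeR 4.0.16 (R 4.3.3) was used with TMM factors, a minimum count of 10, a minimum total of 15 and Benjamini-Hochberg adjustment over all gene IDs. SEs were derived by dividing each log2 difference by the root of its F. Percent of coverage and summed coverage were tested with limma 3.58.1, at a coverage of at least 100 in each library. DESeq2 1.42.0, library size alone, no filter, a minimum count of 50, a coverage of at least 1000, log2(percent + 1), the replicate block and leaving out each library were alternatives. Summed coverage, the counts of positions without each library and those with scaled reads were added after seeing the data. Named positions were, per member, the deepest in AlkAniline-Seq, the deepest in input, and those with at least 30 reads whose groups do not overlap in reads as counted. Fits were tested on simulated data, drawn as independent libraries and with less spread than was estimated for positions. Those runs therefore do not cover positions at their own spread or libraries that share reads. Tables were handled in Python 3.11.15 with numpy 2.4.6, pandas 2.3.3 and matplotlib 3.10.9. With 3 libraries a group, an exact permutation test of 1 value cannot go below 0.1, so none is given. PCR reads without molecular identifiers are not independent molecules. Same-numbered libraries did not deviate together from their group means, with correlations of -0.020 to 0.048.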

Additional observations from a re-analysis of the deposited data

How the results depend on the processing

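No member passed an adjusted p of 0.05 under any alternative of the reads or of the percent of coverage, and in coverage only PSAT1 in input did, without shscramble input replicate 2. Of 759 values of 60 differences under alternatives, 713 kept their sign and 46 turned it, in 23 differences, and in coverage 6 of 160 turned.

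Counts of gene IDs past an adjusted p of 0.05 moved. For AlkAniline-Seq reads, 1 in edgeR, there were 178 with DESeq2, 2 with library size alone, 19 with no filter, 2 at a minimum count of 50, 0 without each gene's deepest position, 5 with positions in place of reads, and 0 to 3 with a library left out. For input, 0 in edgeR, there were 35 with DESeq2 and 95 with no filter. Over input, 1 in edgeR, there were 95 with DESeq2, 31 with no filter and 0 to 2 with a library left out. Within shMETTL1, 27 in edgeR, there were 57 with library size alone and 4 to 91 with a library left out, and within shscramble, 82 in edgeR, 26 to 124. For coverage there were 0 to 27 in AlkAniline-Seq and 0 to 13 in input with a library left out. For positions, 0 in edgeR, there were 713 with DESeq2, 1 among those read in all 6 libraries, 3 to 5644 with a library left out, and 5060 by the methods' t-test, which gave 6483 to 32218 with a replicate left out. Member positions without overlap numbered 13 to 49 lower and 7 to 31 higher with a replicate left out, when 4.74% to 21.1% of all positions were lower and 2.02% to 6.14% higher. The causes were not tested.

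The replicate number as a block gave 3 gene IDs in AlkAniline-Seq reads, 2 in input, 37 in AlkAniline-Seq coverage and 6 positions, none of a member. Same-numbered libraries of different groups share only a number. Each AlkAniline-Seq library is paired with the input of its group and number in the deposited ratio, which the main fits left out. With group and number as the block, the fit of all 12 libraries gave 1 gene ID over input, 69 within shMETTL1 and 119 within shscramble. No member was among them. With the block ASNS was at -0.06 in AlkAniline-Seq reads, ALDH18A1 at -0.07 within shMETTL1, PSPH at -0.03 within shscramble, ASNS position 1 at -0.45 and PYCR1 position 1 at -0.44, all with the sign turned.

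Other signs turned as follows. In AlkAniline-Seq reads MTHFD1L was at 0.09 with no filter and 0.44 without its deepest position, ASNS at -0.06 with library size alone and -0.04 at a minimum count of 50, and ALDH18A1 at -0.41 with positions in place of reads. With library size alone, input PHGDH was at 0.25 and MTHFD2 at 0.02, MTHFD1L over input at -0.05, ALDH18A1 within shMETTL1 at -0.10 and MTHFD2 within shscramble at 0.20.

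With 1 library left out, these differences spanned 0. In AlkAniline-Seq reads PSAT1 was between -0.10 and 0.39, MTHFD1L between -0.26 and 0.12, ASNS between -0.22 and 0.35 and ALDH18A1 between -0.18 and 1.04. In input PHGDH was between -0.22 and 0.01, MTHFD2 between -1.04 and 0.40, ALDH18A1 between -1.75 and 0.95 and PCK2 between -0.82 and 0.01. Over input SHMT2 was between -0.53 and 0.37 and ALDH18A1 between -0.41 and 2.41. Within shMETTL1 PHGDH was between -0.10 and 0.33, PSAT1 between -0.23 and 0.26 and ALDH18A1 between -0.56 and 0.30. Within shscramble PSPH was between -0.97 and 0.93, MTHFD2 between -0.78 and 0.50, ASNS between -0.04 and 0.32 and ALDH18A1 between -2.35 and 0.47. As percent of coverage PHGDH was between -0.14 and 0.31, MTHFD2 between -0.79 and 0.24, MTHFD1L between -0.41 and 0.26, ALDH18A1 between -0.36 and 0.23 and PCK2 between -0.13 and 0.12. In coverage PYCR1 was between -0.10 and 0.33 and ALDH18A1 between -0.33 and 0.81 in AlkAniline-Seq, and PSPH between -0.11 and 0.89, PYCR1 between -0.68 and 0.19 and PCK2 between -0.33 and 0.09 in input. Position 1 of PSPH was between -1.33 and 3.37, of MTHFD1L between -0.91 and 0.68, of ASNS between -0.06 and 0.74 and of PYCR1 between -0.47 and 2.47.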
